A study of Mus musculus with 6 samples.

Results

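The aminoacyl-tRNA synthetases are the enzymes that join each amino acid to its transfer RNA before translation. They were followed here in the livers of mice with and without the kinase LKB1, which is encoded by Stk11. Members were taken by gene symbol: a capital letter followed by ars, ars1 or ars2, plus the bifunctional Eprs, the Farsa and Farsb subunits, and the non-enzymatic proteins Aimp1, Aimp2 and Eef1e1. This gave 40 of the 55450 genes in the table, of which 18 encode cytosolic enzymes or subunits, 17 encode mitochondrial enzymes, 2 (Gars and Kars) make the enzyme of both compartments from a single gene, and 3 are scaffold proteins. All 40 passed the filter on low counts.

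Polyadenylated RNA was sequenced from 6 mice, 3 labelled knockout (KO) and 3 labelled wild type (WT), with 1 library from the left lobe of each liver. KO mice carried LKB1 fl/fl alleles, in which the gene is flanked by sites for the Cre recombinase. Both groups received AAV8 Cre, an adeno-associated virus that delivers Cre mainly to hepatocytes, at 6 weeks of age, and livers were taken 4 weeks later, at 10 weeks, so the WT mice had the virus and Cre as well. The strain is given as C57BL/J, and the promoter that drives Cre is not given in the sources used here. Per the labels, the series concerns what loss of LKB1 does to liver metabolism.

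In the cytosol each standard amino acid has its own synthetase, apart from glutamate and proline, which share the Eprs product. The enzymes fall into class I and class II, which have unrelated catalytic folds. Translation in mitochondria uses a separate set, encoded in the nucleus under symbols ending in 2 and imported after synthesis. In animal cells 8 of the cytosolic enzymes, namely those encoded by Eprs, Iars, Lars, Mars, Qars, Rars, Dars and Kars, sit in the multi-synthetase complex, which Aimp1, Aimp2 and Eef1e1 hold together. Many cytosolic synthetase genes are known targets of ATF4, the transcription factor of the integrated stress response, a program that cells use when amino acids are scarce or protein folding fails. The liver, which makes most plasma proteins, has a high demand for charged transfer RNA.

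Promoters of some members are shown first, and whether their motifs bear on expression was not tested. RefSeq promoters of build GRCm38.p6, running from 250 bases before to 50 bases after the transcript start, were given for 30 of the 40 members: 11 cytosolic, both dual, 14 mitochondrial and all 3 scaffold genes. They were searched on both strands for TGATGNAA, the core of the composite element that ATF4 binds with C/EBP factors. Below are the 5 members with a match, in lower case, 5′ to 3′ in the direction of transcription, with the match in capitals (matches that read TTGCATCA or TTTCATCA are the core on the other strand). In Aars the first capitals mark a CACGTG E-box.
Aars: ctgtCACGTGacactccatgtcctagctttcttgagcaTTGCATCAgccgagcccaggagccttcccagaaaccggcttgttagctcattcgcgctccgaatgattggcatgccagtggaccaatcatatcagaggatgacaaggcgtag
Gars: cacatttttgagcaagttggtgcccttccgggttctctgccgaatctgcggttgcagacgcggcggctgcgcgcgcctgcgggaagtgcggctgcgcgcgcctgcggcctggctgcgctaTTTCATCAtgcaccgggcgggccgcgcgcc
Tars: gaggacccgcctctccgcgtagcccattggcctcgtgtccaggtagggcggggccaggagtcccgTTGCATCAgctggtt
Iars: ggcactgtcagtaTTGCATCAcctccaga
Yars: gagctcagcTGATGCAAcccgacgggact

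The Aars stretch is chr8:111033692-111033841 on the plus strand and the Gars stretch is chr6:55037851-55038000 on the plus strand, and both end at the base before the transcript start. The Tars stretch is chr15:11399659-11399738 on the minus strand and ends at the same point. Iars, chr13:49682124-49682152, and Yars, chr4:129189897-129189925, are both on the plus strand and run from position -6 to position 23, where position 1 is the first transcribed base. The matches begin at position -112 in Aars (with another at position 10, outside the printed stretch), -30 in Gars, -15 in Tars, 8 in Iars and 4 in Yars. Of all 32851 promoters of that length, 3.97% held the core. Among members it was found in 4 of 11 cytosolic, 1 of 2 dual, 0 of 14 mitochondrial and 0 of 3 scaffold promoters. The printed letters of Eprs (chr1:185362894-185363043, plus strand) and Eef1e1 (chr13:38659029-38659178, minus strand), the members with the smallest adjusted p-values in the comparison of the groups, hold no match to any of the motifs searched.
Eprs: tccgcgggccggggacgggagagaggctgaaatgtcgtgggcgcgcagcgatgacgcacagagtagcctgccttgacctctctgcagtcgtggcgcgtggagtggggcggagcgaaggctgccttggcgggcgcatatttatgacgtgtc
Eef1e1: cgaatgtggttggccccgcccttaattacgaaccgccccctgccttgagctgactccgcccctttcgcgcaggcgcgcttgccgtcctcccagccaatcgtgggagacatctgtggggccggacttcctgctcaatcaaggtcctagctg

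A different motif was found on the mitochondrial side. GCATGCGC, the core recognised by NRF1, a factor known for its role in nuclear genes of mitochondrial function, was present in 2.71% of all promoters, in 3 of the 14 mitochondrial synthetase promoters (Rars2, Vars2 and Wars2) and in 0 of 11 cytosolic ones. Each stretch below is the 80 bases before the transcript start, with the matches in capitals (GCGCATGC is the other strand).
Vars2: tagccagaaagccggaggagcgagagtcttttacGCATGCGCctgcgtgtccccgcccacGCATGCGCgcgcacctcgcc
Rars2: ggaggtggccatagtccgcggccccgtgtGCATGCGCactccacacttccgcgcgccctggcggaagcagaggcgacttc
Wars2: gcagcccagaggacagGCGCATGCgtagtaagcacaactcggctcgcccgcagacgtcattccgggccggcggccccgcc

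These lie at chr17:35667593-35667672 on the minus strand (Vars2, with matches beginning at positions -46 and -20), chr4:34614877-34614956 on the plus strand (Rars2, -51) and chr3:99141010-99141089 on the plus strand (Wars2, -64). The E-box CACGTG, which 7.15% of all promoters held, was found in Aars, Farsb, Iars and Tars of the cytosolic set and in Ears2 of the mitochondrial set, and the cAMP response element TGACGTCA, held by 1.79%, in 0 of the 30. A match describes letters in the window and says nothing of whether a factor was bound in these livers.

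The labels were checked on Stk11 (ENSMUSG00000003068.16), which measured 22.1, 14.4 and 11.4 CPM (counts scaled to a common library size with TMM factors) in KO 1, KO 2 and KO 3 and 66.1, 64.2 and 69.7 CPM in WT 1, WT 2 and WT 3. Total counts per library ran from 47659122 to 56147667. In both groups replicate 1 stood apart: KO 1 and WT 1 had 42472 and 29243 counts of Xist and at most 6 Y-linked counts, whereas the other 4 libraries had at least 6146 Y-linked counts and at most 16 of Xist. On the first principal component KO 1 (-3.16) lay between the WT libraries (-55.4 to -42.1) and the other KO libraries (70.8 and 84.7). Comparisons are therefore given over all 6 libraries and over the 4 libraries with Y-linked counts (2 against 2). KO 1 against WT 1 is a single pair without a replicate check. Albumin (Alb), the defining hepatocyte transcript, was abundant in every library. It measured 50550, 10394 and 17534 CPM in KO 1 to KO 3 and 95626, 69977 and 57064 CPM in WT 1 to WT 3. Albumin was thus lower in KO without overlap (log2 fold change -1.50, adjusted p = 0.190 in edgeR). It fell in the 4 libraries (-2.19, adjusted p = 0.0186). In bulk liver, fewer cells of a type and less RNA per cell cannot be told apart.

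Over all 6 libraries, edgeR's quasi-likelihood test placed 0 of the 40 members under an adjusted p of 0.05, against 3.37% of the 14539 genes tested (313 higher and 177 lower, or 380 and 131 with scaling by library size alone). At an unadjusted p under 0.05 there were 10 members, 9 of them higher in KO, against 26.3% of all genes. Limma voom called 0 members and 2.97% of genes. DESeq2 called 3 members (Aars, Eprs and Eef1e1, all higher) and 15.8% of genes. With the Xist state as a term in the edgeR fit the same 3 members were called, against 10.3% of genes.

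In the 4 libraries with Y-linked counts, edgeR called 14 members, 12 higher and 2 lower in KO, against 17.2% of genes called higher and 16.1% called lower. The 12 that rose there were the cytosolic Aars, Eprs, Lars, Rars, Iars, Farsa, Vars and Hars, the dual Gars, the mitochondrial Yars2 and the scaffold genes Eef1e1 and Aimp2. The cytosolic Cars and Tars fell. So 30.0% of members rose, and by compartment the share was 8 of 18 cytosolic, 1 of 2 dual, 1 of 17 mitochondrial and 2 of 3 scaffold genes. These shares depend on the threshold. Just above it were the mitochondrial Ears2 (adjusted p = 0.0539), Fars2 (0.0582) and Mars2 (0.0621), all higher, and Nars2 (0.0624), lower. The dual Kars (0.0506) and the cytosolic Yars (0.0639), both higher, were also just above it. Leaving KO 1 out of the 6 libraries gave 16 called members, against 30.2% of genes, and leaving out any other single library gave 0. Whether the effect of genotype differed between the Xist pair and the other 4 libraries was tested by an interaction term, which passed the threshold for 0 members, against 2.9% of genes. The smallest adjusted p for a member was 0.102 (Aimp2), 5 members had an unadjusted p under 0.05, and no other tool was run on this term. In 37 of the 40 members KO and WT did not overlap in the other 4 libraries. In 13 of these the single Xist pair had the opposite sign, among them Aimp2 (-0.06 in the pair and 1.00) and Sars (-0.13 and 0.39). The share of all genes with this pattern was not computed, so the count cannot be read as particular to the members. Wars also had opposite signs (-0.36 and 0.10), with overlap in the 4 libraries.

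Without regard to a test, the 3 KO libraries lay wholly above the 3 WT libraries in 11 members, or 27.5%, and wholly below in 2 (Cars and Aars2). For all genes tested these shares were 16.9% and 15.5%. The 11 were Aars, Eprs, Lars, Vars, Gars, Kars, Yars2, Sars2, Fars2, Cars2 and Eef1e1.

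**Figure D1:**
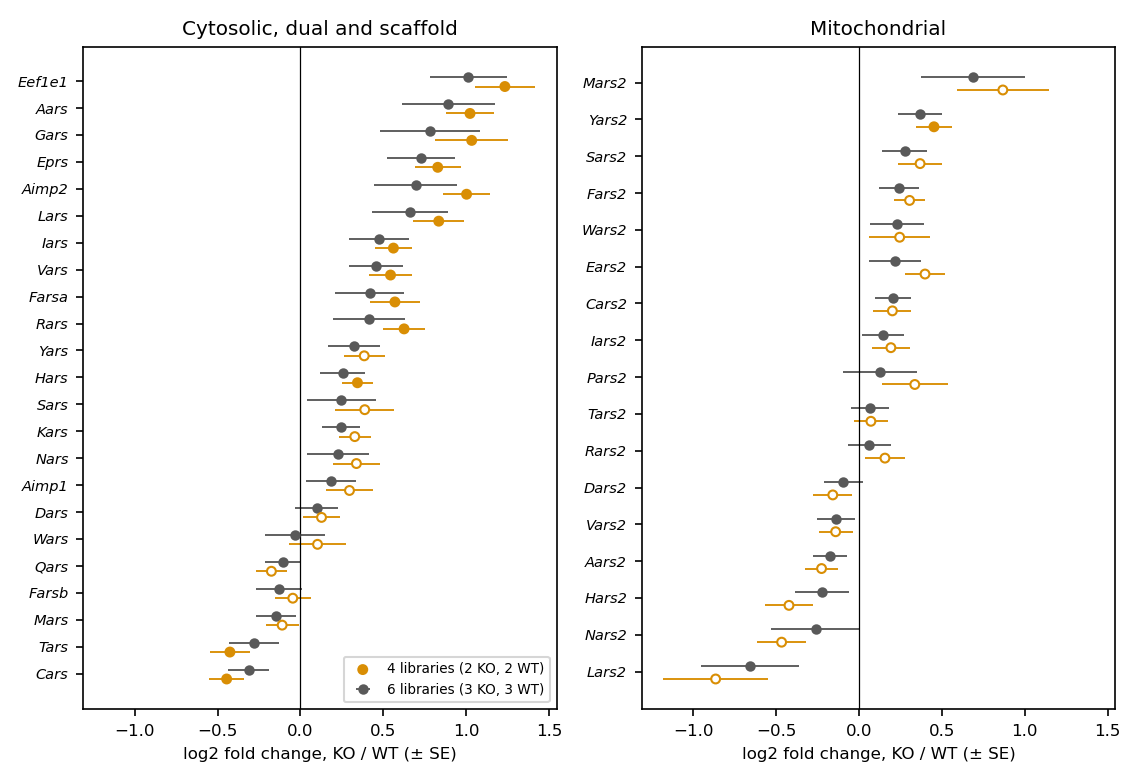
Log2 fold change (KO over WT) of each of the 40 members, by compartment, with bars of 1 standard error. Grey points use all 6 libraries, and orange points use the 4 libraries with Y-linked counts, filled where the adjusted p was under 0.05. Over 6 libraries 12 of 18 cytosolic, 11 of 17 mitochondrial, both dual and all 3 scaffold points lie to the right of 0.

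Among the cytosolic enzymes the largest fold change was that of alanyl-tRNA synthetase. Aars (ENSMUSG00000031960.14, chromosome 8, 111033144 to 111057664, plus strand) measured 257, 502 and 465 CPM in KO 1 to KO 3 and 185, 231 and 243 CPM in WT 1 to WT 3. KO 2 and KO 3 were close to each other, and KO 1 lay only a little above the highest WT library. The means were 408 ± 132 and 220 ± 30.6 CPM (SD, n = 3 mice each), a difference of 1.86-fold, or 0.89 ± 0.28 (SE) on the log2 scale (adjusted p = 0.110). Over the 4 libraries with Y-linked counts it rose by 1.02 log2 units (adjusted p = 0.0063). The annotated exons of Aars include the whole of Exosc6 on the same strand, 1326 bases, and since Exosc6 was listed at 0 in all 6 libraries, reads of that stretch could have been assigned to Aars.

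Eprs, on chromosome 1 (185363044 to 185428360), charges both glutamate and proline transfer RNA and belongs to the complex. Its levels were 149, 244 and 209 CPM in KO and 109, 129.9 and 124 CPM in WT. All KO libraries were above all WT libraries. The difference was 1.66-fold (adjusted p = 0.0916), and 1.78-fold in the 4 libraries (adjusted p = 0.0100).

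Leucyl-tRNA synthetase, encoded by Lars, is also known as a leucine sensor upstream of the growth kinase mTORC1. It measured 37.4, 71.5 and 53.9 CPM in KO and 32.8, 34.9 and 35.3 CPM in WT. The WT libraries varied little and the KO libraries almost 2-fold among themselves. Its log2 fold change was 0.66 ± 0.23 (adjusted p = 0.132) over 6 libraries and 0.83 (adjusted p = 0.0130) over 4.

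Vars charges valine and lies outside the complex of 8 enzymes. Its KO values were 37.9, 56.5 and 45.9 CPM, all above the WT values of 32.4, 34.6 and 35.45 CPM, for a log2 fold change of 0.46 ± 0.16 (adjusted p = 0.142). Iars charges isoleucine within the complex, and in it the groups overlapped. KO 1, at 54.6 CPM, was below WT 3, at 55.3 CPM, and the other KO libraries were at 83.7 and 74.6 CPM against 46.2 and 51.6 CPM in WT 1 and WT 2. Over the 4 libraries Vars (0.54, adjusted p = 0.0273) and Iars (0.56, adjusted p = 0.0169) rose.

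Gars makes the glycyl-tRNA synthetase of both compartments (chromosome 6, 55038007 to 55079500, plus strand). KO 1 was at 46.3 CPM, next to the WT libraries at 44.3, 45.2 and 45.3 CPM, whereas KO 2 and KO 3 were at 114 and 72.1 CPM. The WT libraries differed by 1.21% (coefficient of variation), so the groups did not overlap although KO 1 was barely higher. The log2 fold change was 0.78 ± 0.30 (adjusted p = 0.162), and 1.03 in the 4 libraries (adjusted p = 0.0199). Kars, the lysine enzyme, which is likewise shared by the compartments, showed a smaller log2 fold change of 0.24 (adjusted p = 0.229).

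**Figure D2:**
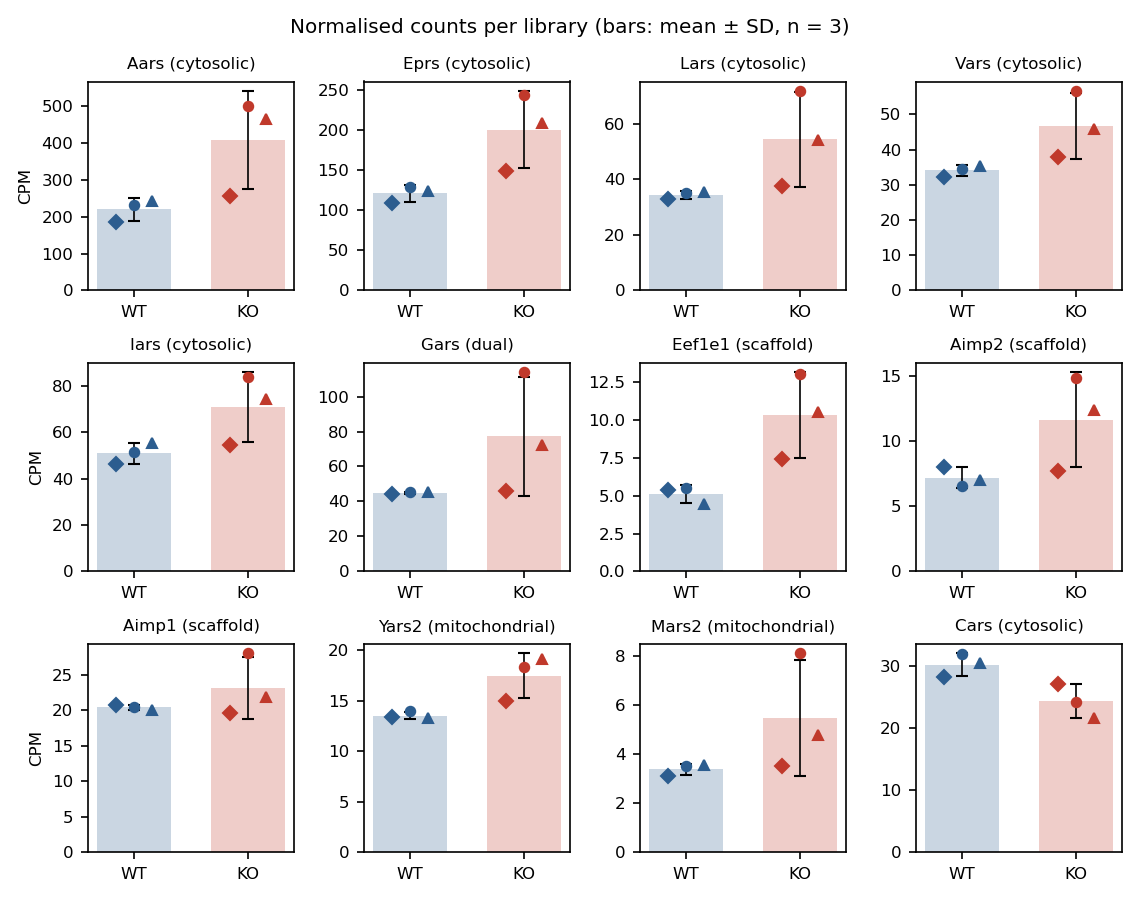
Level in CPM of 12 members in each KO and WT library, on axes that start at 0. Points are libraries, diamonds marking the pair with Xist counts, and bars with error bars are the mean ± SD (n = 3 mice). In Aars, Eprs, Lars, Gars and Eef1e1 the KO 2 and KO 3 points stand well above WT while KO 1 lies between them and WT.

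The other cytosolic genes had log2 fold changes between -0.31 and 0.42. In the 4 libraries Rars (arginine; 1.54-fold, adjusted p = 0.0173), Farsa (the catalytic subunit for phenylalanine; 1.48-fold, adjusted p = 0.0357) and Hars (histidine; 1.27-fold, adjusted p = 0.0391) rose. Yars (tyrosine), at 0.32 over 6 and 0.38 over 4 libraries, did not pass in either (adjusted p = 0.242 and 0.0639). In Rars the left-out pair went the other way, with KO 1 (28.3 CPM) the lowest of the 6 libraries and a log2 ratio of -0.14 to WT 1 (adjusted p of the interaction 0.146 in edgeR). Farsb, the partner subunit of Farsa, had a log2 fold change of -0.13 (adjusted p = 0.577) although both subunits are needed for an active enzyme. Nars (0.22), Sars (0.24), Dars (0.10), Qars (-0.11), Mars (-0.15) and Wars (-0.03) had adjusted p-values from 0.466 to 0.922. Hars and Hars2 start 197 bases apart on opposite strands and share 195 exon bases, so reads there could be assigned to either gene.

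Cars and Tars went the other way and are described because they were the cytosolic members that fell in the 4 libraries, a choice made after their values were seen. Cars, for cysteine, measured 27.0, 24.2 and 21.7 CPM in KO and 28.3, 31.8 and 30.4 CPM in WT, without overlap. Its log2 fold change was -0.31 ± 0.12 over 6 libraries (adjusted p = 0.172) and -0.45 over 4 (adjusted p = 0.0278). Tars, for threonine, was lower in KO 2 and KO 3 (127.6 and 118 CPM) than in WT 2 and WT 3 (161 and 168 CPM), while KO 1 (133.5 CPM) and WT 1 (131.7 CPM) were alike. Its log2 fold change was -0.28 (adjusted p = 0.278) over 6 libraries and -0.43 (adjusted p = 0.0455) over 4. Of the 5 members with the ATF4 core in their promoter, Aars, Gars, Iars and Yars had positive log2 fold changes and Tars a negative one. Without regard to the motif, 14 of the 20 cytosolic and dual genes were above 0. A link between the motif and the fold changes was not tested.

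The median log2 fold change was 0.25 over the 18 cytosolic genes, 12 of them above 0, and 0.01 over all genes tested. It was 0.33 over the 8 enzymes of the multi-synthetase complex and 0.25 over the 12 cytosolic or dual enzymes outside it. Class I (9 genes) and class II (10 genes) of these enzymes had medians of 0.32 and 0.24. The cytosolic median was 0.36 in the 4 libraries. In the single Xist pair it was 0.02, beside -0.02 for all genes.

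The scaffold genes differed among themselves. Eef1e1 (chromosome 13, 38644207 to 38659058, minus strand) encodes AIMP3, the smallest of the 3 scaffold proteins, which is also known as an elongation factor partner. It measured 7.39, 13.0 and 10.5 CPM in KO and 5.36, 5.52 and 4.45 CPM in WT. Every KO library was above every WT library, and the difference of 2.02-fold was the largest of any member. Its adjusted p of 0.0635 was also the smallest, and DESeq2 gave 0.0036. It rose 2.35-fold in the 4 libraries (adjusted p = 0.0069).

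Aimp2, which anchors several enzymes of the complex, measured 7.72, 14.8 and 12.4 CPM in KO and 8.04, 6.52 and 7.03 CPM in WT. KO 1 fell within the WT range. The log2 fold change was 0.69 ± 0.25 (adjusted p = 0.143), and 1.00 in the 4 libraries (adjusted p = 0.0062). Aimp2 shares 487 exon bases with Eif2ak1 on the opposite strand, and Eif2ak1 had a log2 fold change of -0.29 (adjusted p = 0.276). Aimp1, the precursor of the secreted factor EMAPII, measured 19.6, 28.0 and 21.9 CPM in KO and 20.7, 20.5 and 20.0 CPM in WT. Its KO libraries lay on both sides of WT, and its log2 fold change was 0.18 (adjusted p = 0.477).

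The libraries that carried these differences were KO 2 and, less so, KO 3. KO 2 was the highest of the 6 libraries for 25 of 40 members, against 25.1% of all genes tested. By compartment it was highest for 14 of 18 cytosolic genes, both dual genes, all 3 scaffold genes and 6 of 17 mitochondrial genes. KO 3 was the highest for 4 members, all mitochondrial, and KO 1 for 0, against 17.1% and 14.4% of genes. KO 1 lay between the WT libraries and the other KO libraries for 12 members, or 30.0%, against 22.5% of genes. The median coefficient of variation of the cytosolic genes was 5.34% among WT libraries and 20.5% among KO libraries, and over all genes it was 12.01% and 21.1%. Cytosolic enzymes thus varied less than the median gene among WT libraries and about as much among KO libraries. Genes were not matched for abundance in this comparison. The low WT value was not particular to cytosolic genes, as the median over all 40 members was 6.68% among WT and 14.1% among KO libraries.

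**Figure D3:**
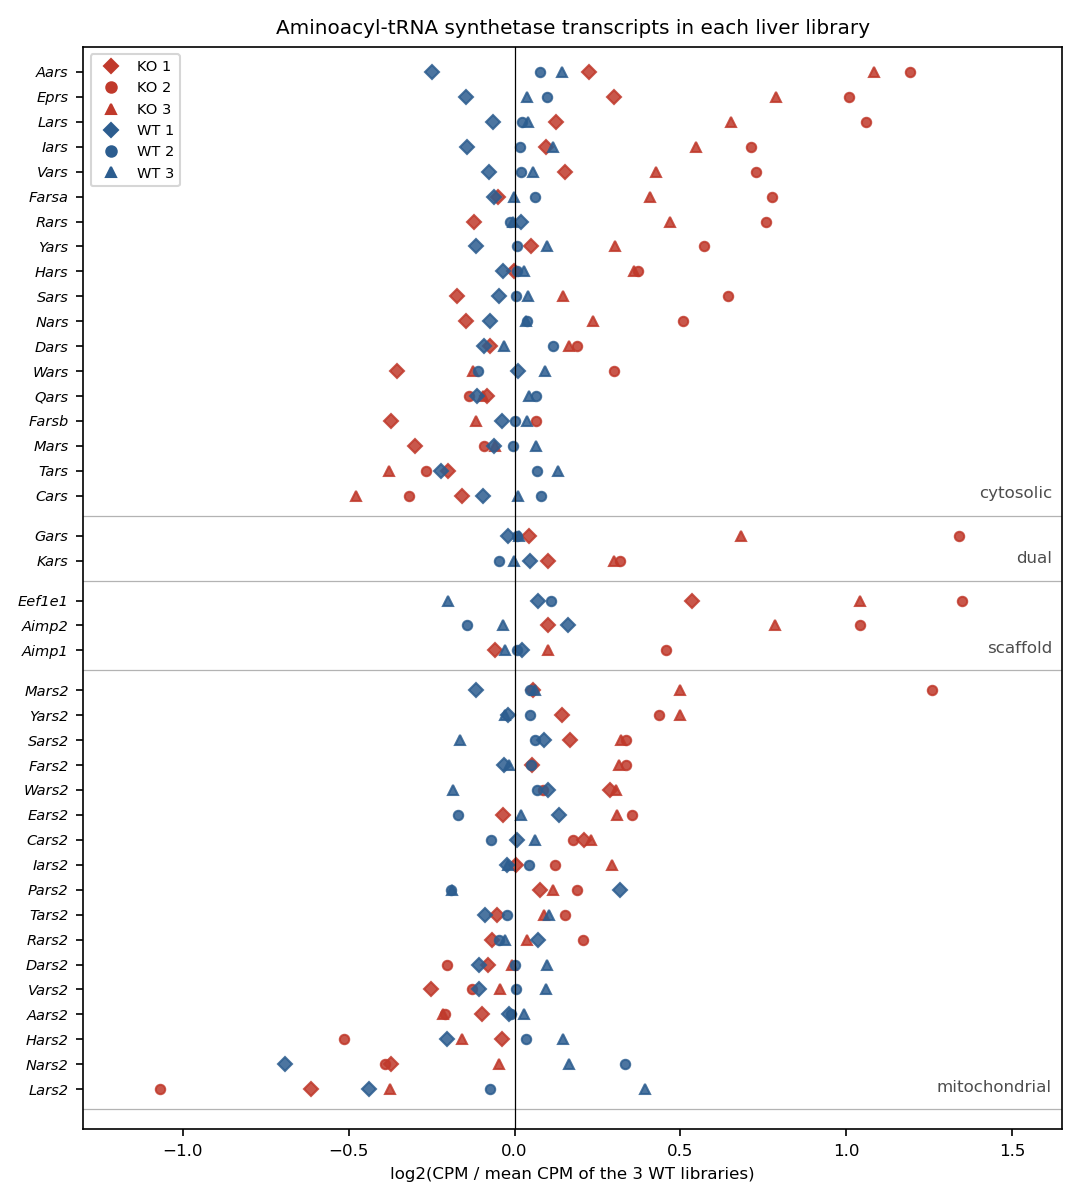
Log2 ratio of each member's level in each library to its mean over the WT libraries, with members in rows grouped by compartment. Symbols are libraries, red for KO and blue for WT, and diamonds mark the pair with Xist counts. KO 2 holds the highest value for 25 of the 40 members, and KO 1 for 0.

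Over the mitochondrial enzymes the median was 0.13 on the same scale, 11 of 17 lying above 0, and it was 0.19 in the 4 libraries and 0.04 in the Xist pair. KO and WT did not overlap in 4 mitochondrial genes with KO higher and 1 with KO lower, the same counts as among the 18 cytosolic genes. Whether the compartments differed in their median was not tested. The median coefficient of variation was 6.99% among WT and 9.67% among KO libraries. Of the 2 classes, the 9 class I enzymes had a median of 0.21 and the 8 class II enzymes a median of -0.01.

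Yars2, the mitochondrial tyrosine enzyme, had the smallest adjusted p of the set. It measured 14.9, 18.3 and 19.1 CPM in KO and 13.3, 14.0 and 13.3 CPM in WT. All KO libraries were higher, by 1.29-fold over 6 libraries (adjusted p = 0.145) and 1.37-fold over 4 (adjusted p = 0.0262).

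Mars2, for methionine, was the least abundant member per length, at 0.301 CPM per kilobase of transcript in WT. That value rests on an annotated transcript of 11.3 kilobases. In CPM without length, Pars2 had a lower WT mean (2.80 against 3.40 for Mars2). Its levels were 3.53, 8.12 and 4.797 CPM in KO and 3.13, 3.51 and 3.55 CPM in WT. KO 2 alone was more than 2-fold above WT, and KO 1 was below the highest WT library. The log2 fold change was 0.69 ± 0.31 (adjusted p = 0.218).

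Sars2 (serine), Fars2 (phenylalanine) and Cars2 (cysteine) showed small differences without overlap. Sars2 measured 10.4, 11.7 and 11.5 CPM in KO and 9.84, 9.66 and 8.25 CPM in WT. Fars2 measured 26.3, 32.1 and 31.6 CPM in KO and 24.8, 26.2 and 25.1 CPM in WT. Cars2 measured 14.8, 14.4 and 15.01 CPM in KO and 12.8, 12.2 and 13.3 CPM in WT. Their log2 fold changes were 0.28, 0.24 and 0.21, with adjusted p-values of 0.247, 0.248 and 0.284, and in Fars2 the lowest KO library was within 1 CPM of the highest WT library.

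The remaining mitochondrial enzymes other than Lars2 had log2 fold changes between -0.26 (Nars2) and 0.23 (Wars2). Aars2, for alanine, was lower in all KO libraries (17.9, 16.6 and 16.5 CPM against 19.0, 19.0 and 19.5 CPM). The difference was -0.17 on the log2 scale (adjusted p = 0.328). Nars2, for asparagine, varied most in WT, where its levels were 13.6, 27.7 and 24.6 CPM, a coefficient of variation of 33.7%. Iars2 shares 2034 of 8885 exon bases with Rab3gap2 on the opposite strand, and the 2 genes had log2 fold changes of 0.14 and 0.11. In all, 16 members share exon bases with another gene, and the use of strand in the counting is not given in the sources used here.

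Lars2, the mitochondrial leucine enzyme (chromosome 9, 123366927 to 123462666, plus strand), stood apart from all other members. It measured 1248, 909.5 and 1471 CPM in KO and 1407, 1813 and 2508 CPM in WT. The groups overlapped, with WT 1 below KO 3, and the log2 fold change was -0.66 ± 0.30 (adjusted p = 0.212). Lars2 held 54.0% of the summed CPM of all 40 members in WT and 86.1% of that of the mitochondrial set. Per length it was at 490.3 CPM per kilobase in WT, and the next member, Nars, was at 45.4. Its level moved with that of Gm42418, which was looked up after the values were seen. Gm42418 is a chromosome 17 gene annotated as a lincRNA that lies in ribosomal RNA repeat sequence. The ratio of Lars2 to Gm42418 stayed between 0.572 and 0.716 in the 6 libraries while each varied more than 2-fold. Other genes of ribosomal RNA or beside it had higher means in KO, without passing the test. The neighbouring lincRNA Gm26917 and the mitochondrial mt-Rnr1 and mt-Rnr2 measured 172 ± 154, 1020.2 ± 415 and 1063 ± 311 CPM in KO and 54.8 ± 24.7, 504 ± 77.6 and 736 ± 185 CPM in WT (SD, n = 3; adjusted p = 0.176, 0.119 and 0.312 in edgeR). The part of ribosomal RNA reads in the Lars2 values was not tested, and summaries are given with and without Lars2. Without it the mitochondrial median was 0.14.

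**Figure D4:**
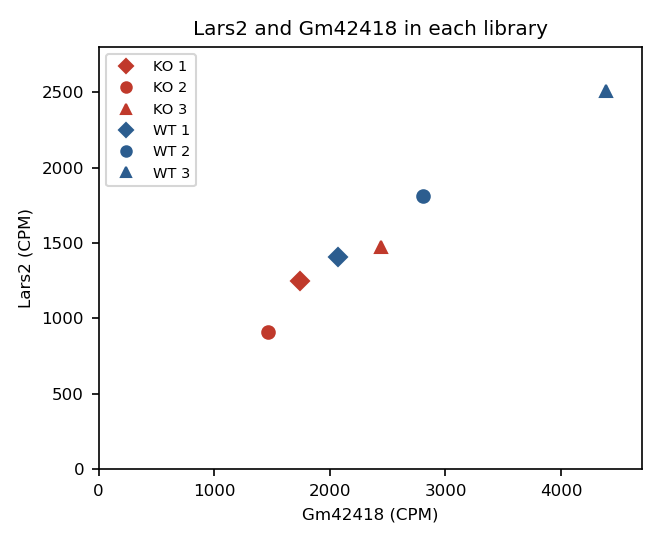
Level of Lars2 against that of Gm42418, both in CPM on linear axes from 0, with 1 point per library. The 6 points lie near a line through the origin, from KO 2 (909.5 and 1466 CPM) to WT 3 (2508 and 4386 CPM), and the groups overlap on it.

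The compartments were then compared within each library, where library scaling cancels, by pairing the cytosolic and the mitochondrial enzyme of the same amino acid. This gave 17 pairs. Eprs enters 2 of them, with Ears2 and with Pars2, and Farsa stands for the cytosolic phenylalanine enzyme. Tarsl2, a Tars-like gene outside the rule for members, enters none, so the threonine pair is Tars and Tars2. Glutamine is in no pair, as no member encodes a mitochondrial glutamine enzyme. In WT the cytosolic transcript was the more abundant per length in 14 of the 17, with a median ratio of 2.88. The exceptions were leucine, isoleucine and phenylalanine, and the ratio was highest for methionine, at 74.9 for Mars over Mars2. The methionine ratio depends on the annotated Mars2 transcript length of 11.3 kilobases, against 2.94 for Mars.

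The log2 ratio of cytosolic to mitochondrial transcript was higher in KO in 11 of 17 pairs, with a median difference of 0.31 (0.25 without the leucine pair). The median was 0.37 in the 4 libraries and -0.01 in the Xist pair. KO and WT did not overlap in 7 pairs. In 4 the KO ratios were all higher, namely alanine, valine, leucine and the glutamate pair of Eprs and Ears2. In 3 they were all lower, namely methionine, cysteine and threonine. The shares of single genes given above, 16.9% and 15.5%, are for levels, and no background was computed for ratios of pairs. An exact 2-sided permutation test on 3 against 3 libraries cannot go below p = 0.10, which these 7 pairs reached, so this test cannot place any pair under 0.05.

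The log2 ratio of Aars to Aars2 was 3.84, 4.92 and 4.82 in KO and 3.29, 3.61 and 3.63 in WT. The KO mean was higher by 1.02 (exact permutation p = 0.10, the smallest possible). For valine the ratio of Vars to Vars2 was 0.82, 1.28 and 0.89 in KO and 0.45, 0.44 and 0.38 in WT, a difference of 0.58. The leucine difference of 1.26 was larger. It rests on both genes, with log2 fold changes of 0.66 for Lars and -0.66 for Lars2. For methionine the direction was opposite. The log2 ratio of Mars to Mars2 was 3.93, 2.94 and 3.73 in KO and 4.34, 4.23 and 4.29 in WT, a difference of -0.76. Cysteine (-0.52) and threonine (-0.34) also had lower ratios in KO.

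**Figure D5:**
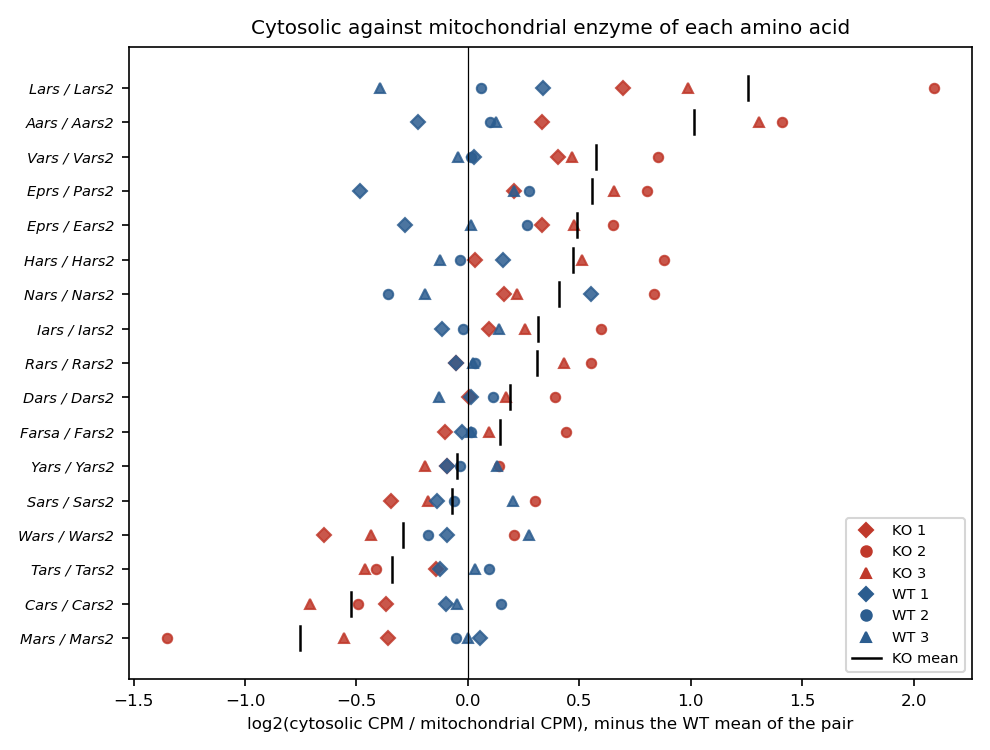
Log2 ratio of the cytosolic to the mitochondrial transcript for each of the 17 pairs, in each library, relative to the WT mean of the pair. KO points lie wholly above WT for leucine, alanine, valine and glutamate and wholly below for methionine, cysteine and threonine, and in these 7 pairs KO 1 is the KO point nearest to WT. Black ticks mark the KO mean.

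Genes that act next to the synthetases gave few calls over 6 libraries. The lists were chosen with earlier results known. Among all genes, 3.37% were called over 6 libraries and 26.3% had an unadjusted p under 0.05. In the 4 libraries 17.2% were called higher and 16.1% lower, and the counts for the lists stand beside these shares. The 14 tested partners of transfer RNA charging included editing, amidation and recycling enzymes and the Tars-like Tarsl2. None was called by edgeR over 6 libraries, with 6 at an unadjusted p under 0.05, and in the 4 libraries 3 rose and 1 fell. Their log2 fold changes were above 0 in 8 and below 0 in 6. Tarsl2 was higher in KO without overlap (0.32, adjusted p = 0.141), whereas Tars was lower. The smallest adjusted p in that list was 0.0975, for the peptidyl-tRNA hydrolase Ptrh2. Cytosolic translation factors had 0 of 9 called, with 4 at an unadjusted p under 0.05, and 3 rose and 1 fell in the 4 libraries. The first of them, Eif5a, which helps ribosomes through polyproline stretches, was 334, 490 and 531 CPM in KO and 251, 256 and 254 CPM in WT (log2 fold change 0.83, adjusted p = 0.0732). Mitochondrial translation factors had 0 of 9 called, with 1 at an unadjusted p under 0.05 (Gfm1, the mitochondrial elongation factor G, log2 fold change 0.43, adjusted p = 0.143). Of these, 1 rose and 1 fell in the 4 libraries.

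The integrated stress response list had a median log2 fold change of 1.07 over 26 tested genes, with 22 above 0 and 10 at an unadjusted p under 0.05. A single gene, Atf5, passed over 6 libraries. Atf5, a transcription factor induced by this response, was at 613, 704 and 605 CPM in KO and 206, 145 and 151 CPM in WT, 1.94 higher on the log2 scale in KO (adjusted p = 0.0109). Of these 26 genes, 13 rose and 0 fell in the 4 libraries, against 17.2% and 16.1% of all genes. Slc7a11, a cystine transporter gene that was tested only in the 4 libraries, also passed there (adjusted p = 0.0468), with 0 CPM in both WT libraries. It measured 2.54 CPM in KO 2 but 0.233 CPM in KO 3, so the call rests mainly on KO 2. In the Xist pair it was at 0.0172 CPM in KO 1 and 0.0591 CPM in WT 1. Atf4 itself had a log2 fold change of 0.32 over 6 libraries (adjusted p = 0.429) and rose by 0.41 in the 4 libraries (adjusted p = 0.0445). Among the kinases that start this response and their substrate, 0 of 5 were called and 1 had an unadjusted p under 0.05, Eif2ak2, which senses double-stranded RNA. It was at 21.1, 63.9 and 69.1 CPM in KO and 21.3, 19.6 and 20.3 CPM in WT, so KO 1 was level with WT (adjusted p = 0.105). In the 4 libraries Eif2ak2 rose, by 1.73 log2 units, and Eif2ak1 fell by 0.43 (adjusted p = 0.0299).

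Amino acid sensors and other genes that link amino acid supply to mTORC1 had a median log2 fold change of -0.35 over 9 tested genes. None was called over 6 libraries by edgeR and 3 had an unadjusted p under 0.05, against 26.3% of all genes. In the 4 libraries 4 fell and 1 rose, against 16.1% and 17.2% of all genes. The arginine sensor gene Castor2 had the smallest adjusted p, at 0.0558. Its levels were 1.87, 0.576 and 0.955 CPM in KO and 3.98, 4.49 and 5.13 CPM in WT, without overlap.

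Markers of the cell types in liver moved in the same comparison. Of all genes, 17.2% were called higher and 16.1% lower in the 4 libraries. The 6 hepatocyte markers summed to between 26114 and 69709 CPM in KO and between 76818 and 116984 CPM in WT. Within that list Tat was called higher over 6 libraries, and in the 4 libraries 1 rose (Tat) and 3 fell (Alb, Apoa1 and Ttr). Alb was the most abundant of the 6 in every library. Alb, Apoa1 and Ttr were lower in KO without overlap, Tat and Cps1 were higher without overlap, and Serpina1a overlapped. The 6 endothelial markers summed to 67.2 to 112 CPM in KO and 135 to 185 CPM in WT, and 5 of the 6 fell in the 4 libraries. Macrophage (61.4 to 137 CPM in KO, 88.3 to 119 in WT), stellate (115 to 219 and 174 to 365), bile duct (24.8 to 74.2 and 39.5 to 72.7), lymphocyte (0.531 to 2.13 and 1.91 to 2.88) and erythroid markers (32.9 to 177 and 109 to 301) overlapped between groups. In the 4 libraries all 3 erythroid markers, 2 lymphocyte, 2 stellate, 2 macrophage and 1 bile duct marker fell, and 1 macrophage marker rose. The 5 cell cycle genes summed to 43.2 to 74.6 CPM in KO and 24.1 to 32.0 CPM in WT. Their median log2 fold change was 1.82 over 6 libraries and -1.51 over 4, where 2 rose (Pcna and Cdk1) and Top2a fell. Mki67, a marker of dividing cells, was at 20.4 CPM in KO 1, 0.738 and 0.149 CPM in KO 2 and KO 3, and 1.33 to 3.35 CPM in WT. Of all these marker genes over 6 libraries, Tat alone passed, and none was at 0 in all libraries. Their part in the synthetase differences was not tested.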

How the data were processed

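The authors deposited 1 table of expected counts (estimated reads per gene) for 55450 genes in 6 libraries from separate mice. Per the submitters' processing notes, bcl2fastq 2.17, cutadapt 1.18, STAR 2.7.0f and RSEM 1.3.1 were used, and the build named is mm9. All 55450 versioned identifiers match GENCODE M21 (GRCm38), so gene positions are from that annotation. Strand use is not given in the sources used here.

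Expected counts were rounded, filtered with filterByExpr, scaled by TMM and tested with edgeR 4.0.16 (quasi-likelihood) in R 4.3.3 with group as the only term. P-values were adjusted by Benjamini-Hochberg over all 14539 genes tested, with a threshold of 0.05. An SE is the log2 fold change divided by the square root of F. DESeq2 1.42.0, limma 3.58.1 (voom), other scalings, no filter, an Xist term, a replicate block, the 4 libraries with Y-linked counts and leaving out each library were alternatives. CPM per kilobase uses the length of 1 principal transcript per gene, the longest where there are several.

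Members and lists were chosen with earlier results of these data known. Values in every library are given for the 6 cytosolic or dual and the 6 mitochondrial members with the smallest adjusted p and for the 3 scaffold members. From other lists, genes past the threshold (at most 3), or else the 1 with the smallest adjusted p, are named. Cars, Tars, Tarsl2, Aars2, Nars2, Atf4, Slc7a11, Eif2ak1, Gm42418, Gm26917, mt-Rnr1, mt-Rnr2, named markers and overlapping genes were named after their values were seen. With total counts of 47659122 to 56147667, 3 counts correspond to 0.0515 to 0.0641 CPM, far below every member.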

Additional observations from a re-analysis of the deposited data

How the results depend on the processing

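Over these alternatives 38 of the 40 members had the direction they had over 6 libraries. The single Xist pair, which is no alternative fit, had the opposite sign in 13 members whose groups did not overlap in the other 4 libraries. No share over all genes was computed for that count. Wars (-0.03 over 6 libraries) was at 0.10 in the 4 libraries, at 0.0197 with scaling by library size alone, and between -0.23 and 0.10 when a library was left out. Rars2 (0.06 over 6 libraries) was between -0.0075 (without KO 2) and 0.12 when a library was left out, and at 0.16 in the 4 libraries. Counts of all genes called moved from 490 to 2290 with DESeq2, 1504 with the Xist term, 4847 in the 4 libraries, 771 with no filter, and 6 to 4473 when a library was left out (6 without WT 2, 4473 without KO 1). The called members numbered 2 cytosolic and 1 scaffold with DESeq2 and again with the Xist term, and 10 cytosolic, 1 dual, 1 mitochondrial and 2 scaffold in the 4 libraries. Leaving out single libraries gave 0 to 10 cytosolic, 0 to 3 mitochondrial and 0 to 2 scaffold calls, all above 0 from the omission of KO 1. The mitochondrial median ran from 0.0534 (without WT 2) to 0.15 under these omissions. The cytosolic median ran from 0.13 (without KO 2) to 0.39 (without KO 1), and the median pair ratio difference from 0.18 (without KO 2) to 0.43 (without KO 1).

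Same-numbered libraries are different mice, and the labels state no pairing. The correlations of their deviations from the group mean were 0.18, 0.04 and 0.07 for numbers 1 to 3. The highest was that of number 1, whose libraries share the Xist state. With so few libraries these values cannot show whether the numbers pair the mice. A fit with the replicate number as a block called 105 genes and 0 members. Scaling by library size alone called 380 genes higher among 511, against 313 among 490. Counting error adds to the spread for the least abundant members, such as Mars2, with 159 to 182 counts in WT, and Pars2, with 143 to 177 counts in KO.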

Other observations

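Several members share their start region with another gene. For 12 of the 40 a protein-coding gene on the opposite strand starts nearby, between 13 bases (Rars2 and Orc3) and 543 bases (Wars and Wdr25) away. Aimp2 and the mismatch repair gene Pms2 start 117 bases apart, Kars and the telomere protein gene Terf2ip 75 bases apart, and Sars2 and the mitochondrial ribosomal protein gene Mrps12 172 bases apart. Hars and Hars2, which charge the same amino acid in different compartments, are such a pair, and their log2 fold changes were 0.25 and -0.22 (adjusted p = 0.278 and 0.420 in edgeR's quasi-likelihood test).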
